A study of Mus musculus with 4 samples.

Results

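Origin licensing and firing factors were read on 4 Illumina MouseWG-6 BeadChip arrays of murine embryonic fibroblasts (MEFs), fibroblasts cultured from mouse embryos. They were 10 genes chosen by their symbol on the array, out of 30872 genes: Cdc6, Cdt1, Gmnn, Orc1l, Orc2l, Orc6l, Cdc7, Cdc45l, Gins1 and Gins2, several of them under older names (Orc1l, Orc2l and Orc6l are Orc1, Orc2 and Orc6, and Cdc45l is Cdc45). They had 18 of the 45281 probes, each 50 bases long. The 4 conditions, with 1 array each, were called parental, Rb-deleted, ΔCdk Rb-HA and WT Rb-HA, and the study asked how the retinoblastoma protein Rb, in its normal form or in a form that Cdks cannot phosphorylate, holds down transcription after DNA damage. All MEFs were of the strain FVB;129 and carried LoxP sites on both Rb alleles. The parental MEFs received a solution without TAT-Cre, and the other 3 received TAT-Cre, a Cre recombinase that enters cells, which removes Rb. Both steps of the procedure, the protein and then virus or medium alone, were given as 2 treatments of 1 h, 3 h apart. The parental and Rb-deleted MEFs got medium alone in the second step, the WT Rb-HA MEFs got a retrovirus with wild type Rb, and the ΔCdk Rb-HA MEFs got a retrovirus with the phospho-mutant Rb (dCDK in the labels). All 4 cultures were arrested by contact, let go for 4 hr and then exposed to 100 ng/ml of doxorubicin for 3 hr, so that no array shows undamaged cells.

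DNA replication starts at origins in 2 steps that the cell cycle keeps apart. In G1 phase the origin recognition complex (ORC), Cdc6 and Cdt1 load the Mcm2-7 helicase on DNA as an inactive double ring, which is called licensing, and geminin (Gmnn) binds Cdt1 to stop a second round of loading. At the start of S phase the kinase Cdc7 with its activator Dbf4, together with Cdk2, lets Cdc45 and the GINS complex join the ring and turn it into a moving helicase, which is called firing. Several of these genes are known targets of E2F transcription factors, which Rb binds and represses.

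Each condition was measured once, so every difference here compares 1 array with 1 array, without a replicate check and without a test. The errors given are bead standard errors, which describe how well the beads of 1 probe agreed within an array and leave out the spread between cultures. In RNA of whole cultures, fewer cells of a type and less RNA per cell cannot be told apart. Retrovirus was given only to the MEFs that got an Rb form back, and no array held cells with an empty virus, so virus and Rb form cannot be told apart in comparisons of these arrays with the other 2, and nor can TAT-Cre and loss of Rb in comparisons with the parental array. The arrays were alike in depth, with mean intensities from 335.7 to 345.8, a median of 44 beads a probe on each and between 15950 and 16740 probes detected at a detection p-value below 0.01. Rb1, the deleted gene, set the parental array apart from the rest: its probe at transcript position 4421 read 542.7 on the parental array and 160.5, 180.9 and 170.1 on the other arrays (without Rb, with WT Rb-HA and with ΔCdk Rb-HA), low also where the virus carried Rb, so that it checks the deletion and does not check which arrays got an Rb form back. The fibroblast label fitted its markers, since 10 of 10 fibroblast genes were detected on all 4 arrays with summed intensities from 48053 to 55039, although Col3a1 gave log2 ratios to parental of -0.73 without Rb and -0.98 with ΔCdk Rb-HA, and Postn -1.26 with ΔCdk Rb-HA. Of 8 epithelial and endothelial markers 3 were detected. Krt8 (66.9 to 80.9) and Krt18 (88.1 to 120) were detected on all 4 arrays, and Cdh1 on 1. Epcam, Krt5, Pecam1, Cdh5 and Kdr were not above background on any array.

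E2F sites were looked for in the RefSeq promoter windows of assembly GRCm38.p6, each 300 bases long, from 250 before the start of a transcript to 50 after it. Such windows were found for 7 of the 10 genes (9 windows), and not for Gmnn, Gins1 and Gins2. The site was searched on both strands in the forms TTTCCCGC, TTTGGCGC, TTTCGCGC and TTTGCCGC, and one was found in 3 of the 9 windows, 1 each of Cdc6, Cdt1 and Orc1, while 2.26% of all 32851 windows held one. The 3 windows are printed 5′ to 3′ on the gene's strand (the plus strand for each) because they belong to the licensing genes whose intensities are described next, and capitals mark the match, in reverse complement where it lies on the opposite strand. In Cdc6, chr11:98907901-98908200, the match lies 138 to 131 bases before the start on the opposite strand. In Cdt1, chr8:122567765-122568064, it lies at bases 33 to 40 of the transcript on the same strand. In Orc1, chr4:108579204-108579503, it lies 27 to 20 bases before the start on the opposite strand.
Cdc6: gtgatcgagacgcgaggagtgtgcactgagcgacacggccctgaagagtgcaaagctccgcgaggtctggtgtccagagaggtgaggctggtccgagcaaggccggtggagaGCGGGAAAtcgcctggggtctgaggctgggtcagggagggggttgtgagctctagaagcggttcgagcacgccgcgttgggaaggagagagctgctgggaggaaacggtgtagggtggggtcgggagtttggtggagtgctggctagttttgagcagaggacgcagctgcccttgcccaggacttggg
Cdt1: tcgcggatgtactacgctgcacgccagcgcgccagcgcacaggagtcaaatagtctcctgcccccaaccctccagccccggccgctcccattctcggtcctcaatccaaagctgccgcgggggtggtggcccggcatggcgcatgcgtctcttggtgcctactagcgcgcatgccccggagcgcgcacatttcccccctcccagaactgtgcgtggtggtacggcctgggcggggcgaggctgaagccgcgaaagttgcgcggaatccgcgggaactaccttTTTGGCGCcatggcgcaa
Orc1: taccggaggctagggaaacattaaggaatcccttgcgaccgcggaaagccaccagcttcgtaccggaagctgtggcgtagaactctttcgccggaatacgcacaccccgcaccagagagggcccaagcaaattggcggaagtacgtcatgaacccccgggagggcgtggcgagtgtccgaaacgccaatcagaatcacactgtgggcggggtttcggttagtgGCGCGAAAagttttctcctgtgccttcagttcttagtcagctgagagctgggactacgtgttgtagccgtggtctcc
The NF-Y box CCAAT was found in 5 of the 9 windows (of Orc1, Orc2, Orc6 and Cdc45) and in 37.4% of all windows. The cell cycle homology element in the form TTTGAA was found in 3 of the 9 (of Cdc45 and Cdc7) and in 17.9% of all. The Cdc7 windows overlap and hold the same match, so that by gene it was found in 2 of 7, beside 20.2% of all genes with a window. These matches describe letters in the windows, and no binding was measured.

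The helicase loaders Cdc6 and Cdt1 were both higher without Rb. Cdc6, the ATPase that joins ORC on DNA to load the helicase, is on chromosome 11 and has 4 probes, of which the one at transcript position 2266 was detected. Its deposited intensity was 79.8 in parental MEFs (bead standard error 3.42), 162 without Rb (7.29), 107 with WT Rb-HA (4.44) and 179 with ΔCdk Rb-HA (5.75). The ΔCdk Rb-HA and Rb-deleted arrays were high, and the WT Rb-HA array lay between them and the parental array. After normalization Cdc6 was 2.5-fold over parental without Rb, 1.48-fold with WT Rb-HA and 2.87-fold with ΔCdk Rb-HA. Its 1.94-fold difference between the 2 Rb forms (ΔCdk over wild type, 0.96 on the log2 scale, bead standard error 0.10) was the widest in that comparison among the 8 of the 10 genes that were detected. The other Cdc6 probes, at positions 30, 225 and 4206, read between 32.5 and 44.9 and were at background on all 4 arrays, so that Cdc6 rests on 1 probe.

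Cdt1, the partner that brings the Mcm2-7 ring to Cdc6 and ORC, is on chromosome 8 and has 1 probe, at position 1986. It read 445 in parental MEFs (bead standard error 16.1), 1122 without Rb (27.4), 661 with WT Rb-HA (23.1) and 885 with ΔCdk Rb-HA (20.3). Here the Rb-deleted array was highest, the ΔCdk Rb-HA array next and the WT Rb-HA array below it. Cdt1 was 2.7-fold over parental without Rb, 1.56-fold with WT Rb-HA and 2.18-fold with ΔCdk Rb-HA, and its 2.7-fold ranked 13 among the 10837 genes that were detected on all 4 arrays. Geminin, the inhibitor of Cdt1, was not detected: its probe at position 753 read 39.5, 44.3, 45.2 and 47.3 in parental MEFs, without Rb, with WT Rb-HA and with ΔCdk Rb-HA, with detection p-values from 0.0887 to 0.5032. Geminin was thus not well above background on any array, no ratio of it is given, and a difference in it was not detectable here.

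**Figure D1:**
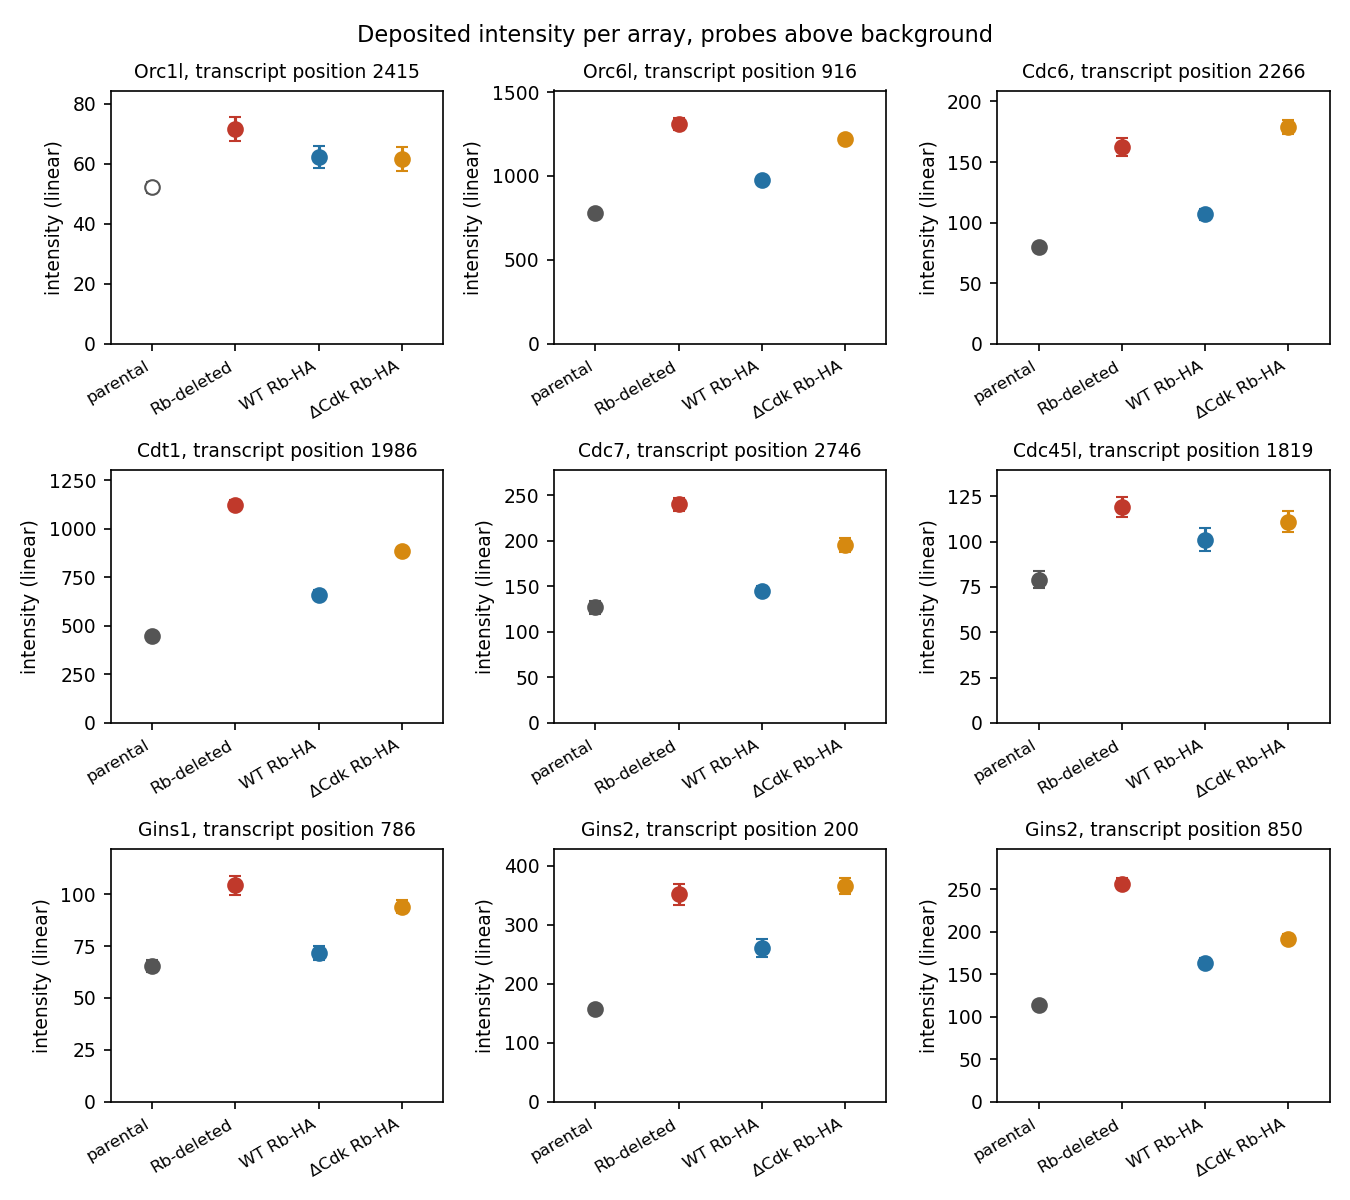
Deposited probe intensity (linear, from 0) on the 4 arrays for the 9 detected probes of 8 origin licensing and firing genes, with bars for the bead standard error within an array and an open symbol where the probe was not detected. In every panel the parental array is lowest, and WT Rb-HA lies below Rb-deleted; Cdc6 and the Gins2 probe at position 200 are highest on the ΔCdk Rb-HA array.

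ORC subunits differed among themselves. Orc6l, the smallest subunit, on chromosome 8, read 780.2 in parental MEFs (bead standard error 25.8), 1307 without Rb (35.2), 973 with WT Rb-HA (23.2) and 1221 with ΔCdk Rb-HA (21.1) at position 916. Both the Rb-deleted and the ΔCdk Rb-HA arrays stood above the other pair, and they differed from each other by -0.05 on the log2 scale (ΔCdk Rb-HA over Rb-deleted, bead standard error 0.04). Orc6l was 1.76-fold over parental without Rb, 1.32-fold with WT Rb-HA and 1.7-fold with ΔCdk Rb-HA. Orc1l, the subunit whose amount follows the cell cycle in many cells, on chromosome 4, was dim: its probe at position 2415 read 52.1 on the parental array, where it was not detected (detection p-value 0.0299), 71.6 without Rb, 62.2 with WT Rb-HA and 61.7 with ΔCdk Rb-HA. It passed the detection filter only through the 3 arrays on which it was higher, so its place above parental was set by that filter. After background correction its ratio to parental was at least 1.47-fold, 1.12-fold and 1.15-fold on these arrays, while the deposited intensities, with no background taken off, gave 1.37, 1.19 and 1.18, so that its place against the 1.6-fold limit was not settled. Its arrays with the 2 Rb forms differed by a log2 ratio of 0.03 (ΔCdk over wild type, bead standard error 0.21). Both Orc2l probes stayed below detection on all 4 arrays, at 44.5 to 55.6, and the position 1635 probe came nearest on the WT Rb-HA array, with a detection p-value of 0.0171.

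Of the ORC subunits that are not among the 10 genes, Orc5l had the order of arrays seen in Orc6l with smaller ratios, and Orc3l and Orc4l were below parental on all 3 arrays. Orc3l gave log2 ratios to parental of -0.09, -0.12 and -0.16 without Rb, with WT Rb-HA and with ΔCdk Rb-HA (bead standard error 0.12 each). Orc4l gave -0.23, -0.14 and -0.54 (0.13, 0.16 and 0.19) in the same order. Of these Orc3l and Orc4l ratios, only that of Orc4l with ΔCdk Rb-HA lay more than 2 bead standard errors from 0. Orc5l gave 0.38, 0.11 and 0.18 (0.06, 0.07 and 0.08). Between the 2 Rb forms Orc5l differed by 0.06 (ΔCdk over wild type, bead standard error 0.09), so the order of those arrays was not settled. None of these 3 subunits came to 1.6-fold, which is 0.68 on the log2 scale. Orc6l was the only ORC subunit detected on all 4 arrays that did.

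Cdc7, the catalytic subunit of the kinase that phosphorylates the Mcm2-7 ring at firing, is on chromosome 5. Its probe at position 2746 read 127 in parental MEFs (bead standard error 7.04), 240 without Rb (6.79), 145 with WT Rb-HA (5.76) and 195 with ΔCdk Rb-HA (7.6), and its probe at position 1007 was at background. The WT Rb-HA array was close to the parental one, at 1.18-fold (log2 0.24, bead standard error 0.12), and the Rb-deleted array stood at 2.13-fold and the ΔCdk Rb-HA array at 1.73-fold. WT Rb-HA over Rb-deleted gave a log2 ratio of -0.85 (bead standard error 0.09), the widest such gap among the 7 of the 10 genes that were detected on all 4 arrays. Dbf4, the activator that Cdc7 needs, read 306.1, 264.4, 263.4 and 286.4 in that same order of arrays. Dbf4 therefore was lower without Rb, by a log2 ratio of -0.19 (bead standard error 0.06), while its catalytic partner was higher.

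Cdc45l and GINS complete the helicase at firing. Cdc45l, on chromosome 16, read 79.1 in parental MEFs (bead standard error 4.72), 119 without Rb (5.36), 101 with WT Rb-HA (6.3) and 111 with ΔCdk Rb-HA (5.55) at position 1819, and its other probe, at position 2046, was at background. Its arrays had the order of Cdt1 with narrower gaps. Cdc45l was 1.75-fold over parental in Rb-deleted and 1.61-fold in ΔCdk Rb-HA MEFs, the latter just past 1.6-fold. On the log2 scale ΔCdk Rb-HA lay 0.21 over WT Rb-HA (bead standard error 0.15), so that these 2 arrays were not set apart by more than 2 bead standard errors.

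Gins1, a GINS subunit, read 65.4 in parental MEFs (bead standard error 2.75), 104 without Rb (4.42), 71.6 with WT Rb-HA (3.2) and 94 with ΔCdk Rb-HA (3.34) at position 786. Its WT Rb-HA array came nearest of all to parental, at 1.12-fold (log2 0.16, bead standard error 0.14), against 1.95-fold for the Rb-deleted and 1.71-fold for the ΔCdk Rb-HA array.

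Gins2, another GINS subunit, on chromosome 8, had a pair of detected probes that gave different orders of the arrays, and the first 30 bases of each are printed to tell them apart.
Gins2 at position 200: ggctggccattaacctgaaacagagacaga
Gins2 at position 850: cgtggaaagctgtatgtagttgaggctgag
The probe at position 200, the brighter one, read 157 in parental MEFs (bead standard error 7.39), 352 without Rb (17.5), 261 with WT Rb-HA (15.5) and 366 with ΔCdk Rb-HA (13.3). The probe at position 850 read 114 in parental MEFs (4.17), 257 without Rb (6.51), 164 with WT Rb-HA (5.24) and 192 with ΔCdk Rb-HA (5.85). Both probes placed Rb-deleted MEFs far over parental, by log2 ratios of 1.33 (bead standard error 0.11) and 1.39 (0.08). They parted on the ΔCdk Rb-HA array, which was level with Rb-deleted at position 200 (log2 difference 0.10, bead standard error 0.09) and below it at position 850 (-0.44, 0.07). On the WT Rb-HA array the probe at position 200 gave 1.83-fold over parental, and the other gave a log2 ratio of 0.64, short of 1.6-fold. Among the partners, Gins4 gave log2 ratios to parental of 0.73, 0.52 and 0.66 without Rb, with WT Rb-HA and with ΔCdk Rb-HA (bead standard errors 0.05, 0.05 and 0.04). Gins3, which was dim at 69.8 to 83.5, gave log2 ratios to parental of -0.04, -0.41 and -0.10 (bead standard errors 0.17, 0.18 and 0.20). The rise of Gins1, Gins2 and Gins4 without Rb was thus not seen at this dim probe.

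**Figure D2:**
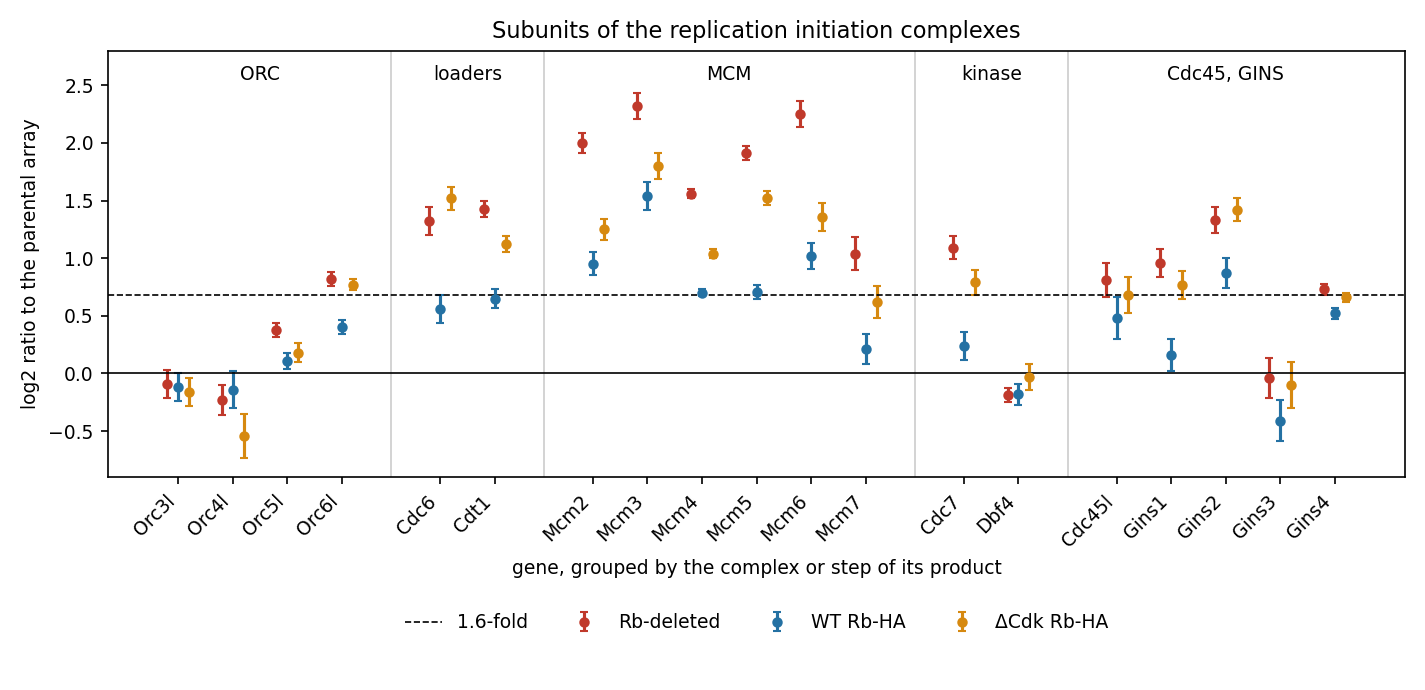
Log2 ratios to the parental array of genes grouped by complex, with bead standard errors, for the 3 other arrays. Within ORC, within the Cdc7 kinase and within GINS some subunits lie at or below 0 without Rb (Orc3l, Dbf4, Gins3) beside others that pass 1.6-fold without Rb (Orc6l, Cdc7, Gins2).

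Loss of Rb was the first comparison. Of the 10 genes 8 were detected on at least 1 array and 7 on all 4, and these 7 (Cdc6, Cdt1, Orc6l, Cdc7, Cdc45l, Gins1 and Gins2) give the counts that follow. In Rb-deleted over parental MEFs 7 of 7 were past 1.6-fold higher, where 2.05% of the 10837 genes detected on all 4 arrays were (222 genes). Their log2 ratios ran from 0.81 (Cdc45l, with Orc6l next at 0.82) to 1.43 (Cdt1), with a median of 1.09 beside 0.011 over all these genes. In rank Cdt1, Gins2, Cdc6 and Cdc7 stood at 13, 16, 17 and 42, and Gins1, Orc6l and Cdc45l at 68, 125 and 131 of 10837. The licensing and firing genes were thus mixed in this order, with the loader Cdt1 first, then Gins2, then the loader Cdc6, and the kinase Cdc7 after them.

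With wild type Rb these genes lay between the parental and the Rb-deleted level. In WT Rb-HA over parental MEFs 1 of the 7, Gins2, was past 1.6-fold higher, beside 0.83% of all genes, and the median log2 ratio was 0.48 with a range from 0.16 (Gins1) to 0.87 (Gins2). Set against Rb-deleted MEFs, 7 of 7 were lower on the WT Rb-HA array, where 46.7% of all genes were higher. Of the 7, 4 were past 1.6-fold lower (Cdc7, Gins1, Cdt1 and Cdc6), beside 0.434% of all genes. Without background correction 2 of 7 were, beside 0.249%. The median was -0.76, and those 4 genes ranked 19, 26, 29 and 33 among the genes lower in this comparison. Orc6l, Gins2 and Cdc45l were the 3 that fell short, at -0.42, -0.46 and -0.33. For Gins2 this held at position 200 only. Its probe at position 850 gave -0.75 (bead standard error 0.07), past 1.6-fold lower.

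With ΔCdk Rb they lay near the level of Rb-deleted MEFs. In ΔCdk Rb-HA over parental MEFs 7 of 7 were past 1.6-fold higher, beside 2.39% of all genes, with a median log2 ratio of 0.79 and a range from 0.68 (Cdc45l) to 1.52 (Cdc6). Without background correction, or with a larger offset, 4 of 7 passed, and the share of all genes was then 1.5% or 1.33%. Against Rb-deleted MEFs 0 of 7 passed 1.6-fold either way, beside 4.12% of all genes. At that share a count of 0 among 7 genes says little. The log2 differences ran from -0.31 (Cdt1) to 0.20 (Cdc6). Cdt1 and Cdc7 (-0.30) lay below Rb-deleted MEFs by more than 2 bead standard errors, and Cdc6 lay above them by more than 2. The others did not differ by that much, with Gins2 read at position 200. The Gins2 probe at position 850 lay further below Rb-deleted MEFs, at -0.44 (bead standard error 0.07). Against WT Rb-HA MEFs 7 of 7 were higher, beside 47.7% of all genes, with a median of 0.55. Cdc6 alone was past 1.6-fold higher, beside 0.729% of all genes. All 3 comparisons with parental share the parental array, so their values are set side by side here and not counted as separate support.

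**Figure D3:**
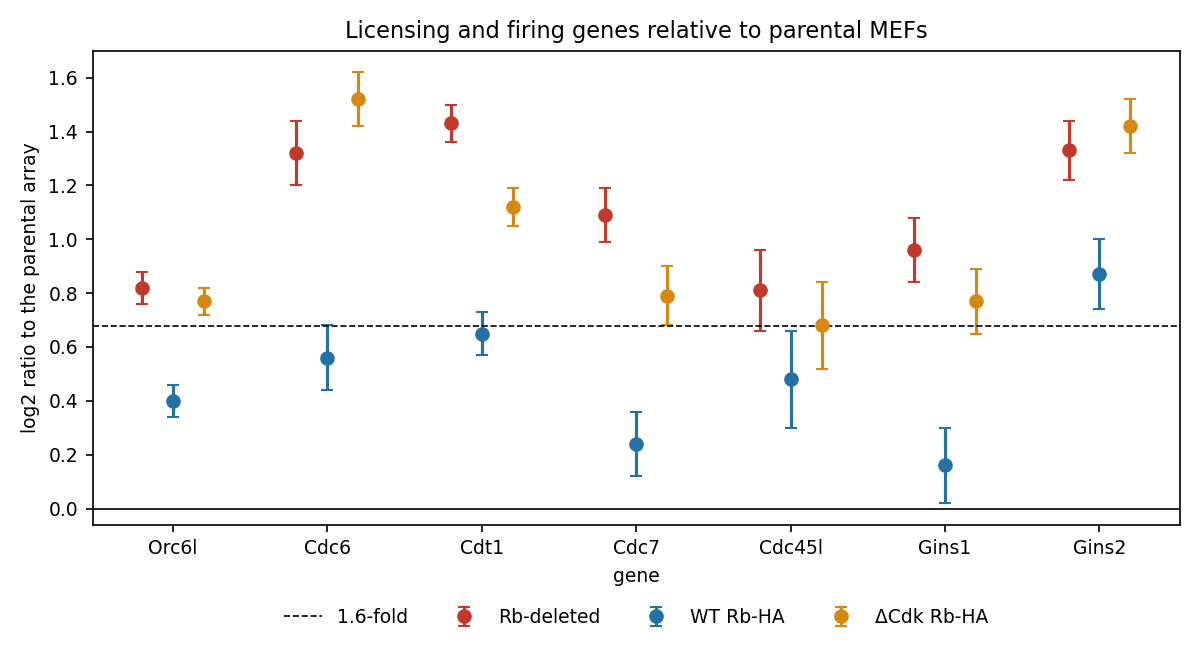
Log2 ratio to the parental array, with bead standard error, of the 7 origin licensing and firing genes detected on all 4 arrays, for each of the other 3 arrays, with a dashed line at 1.6-fold. All 7 lie past the line on the Rb-deleted and ΔCdk Rb-HA arrays, and Gins2 alone does on the WT Rb-HA array.

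The same values can be read as the share of each gene's increase without Rb that was still present when an Rb form was given back, where 0% is the parental and 100% the Rb-deleted log2 level. On the WT Rb-HA array the shares were 16.9% for Gins1 (bead standard error 13.6), 21.9% for Cdc7 (9.4), 42.6% for Cdc6 (7.8), 45.1% for Cdt1 (4.5), 48.7% for Orc6l (5.5), 59.0% for Cdc45l (17.4) and 65.6% for Gins2 (8.6). Gins1 and Cdc7 were the 2 whose remaining share was smallest, and their neighbours from Cdc6 to Cdc45l in this order differed by less than their bead errors. On the ΔCdk Rb-HA array the shares were 72.5% for Cdc7 (7.2), 78.3% for Cdt1 (3.0), 80.3% for Gins1 (9.9), 84.6% for Cdc45l (14.2), 93.8% for Orc6l (5.2), 107.2% for Gins2 (7.4) and 115.1% for Cdc6 (7.7). Each of the 7 thus kept a larger share with ΔCdk Rb than with wild type Rb. The Gins2 probe at position 850 gave 46.1% (4.9) and 68.1% (4.5), which moves Gins2 from first to the middle of the WT Rb-HA order, and from just under Cdc6 to the low end of the ΔCdk Rb-HA order.

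**Figure D4:**
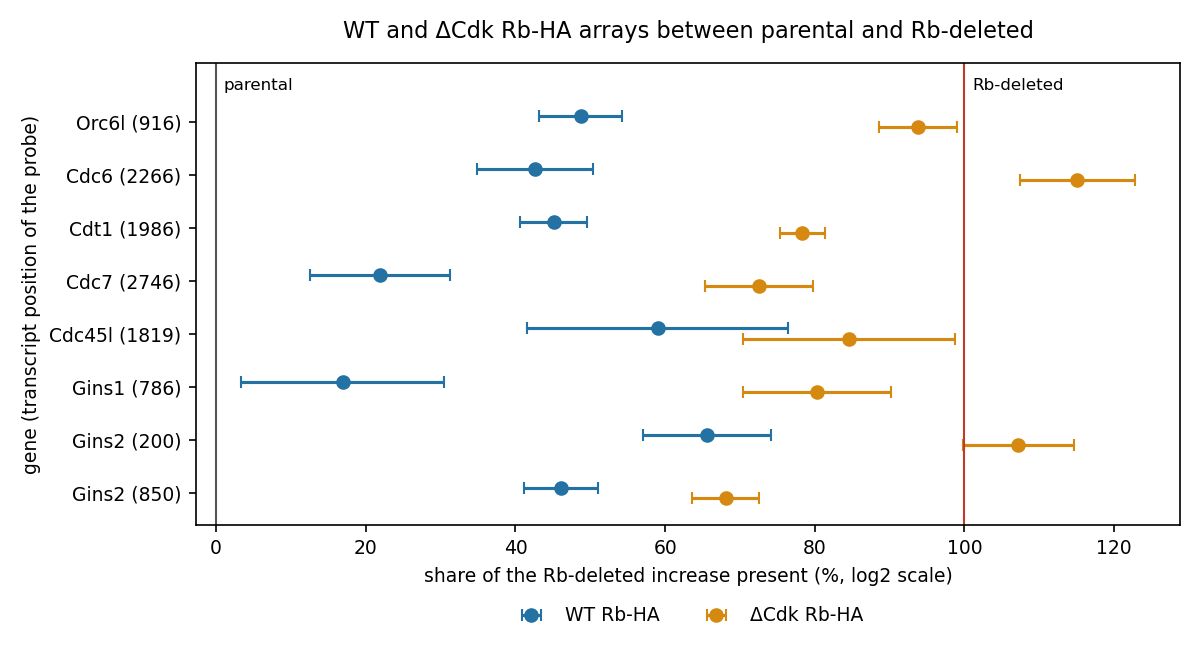
Share of the Rb-deleted increase present with each Rb form (WT Rb-HA or ΔCdk Rb-HA) for each gene, in percent of the log2 difference between the parental (0) and Rb-deleted (100) arrays, with bead standard errors. WT Rb-HA shares run from 16.9 to 65.6 and ΔCdk Rb-HA shares from 68.1 (Gins2, position 850) to 115.1, and the error bars of the 2 forms overlap for Cdc45l.

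The helicase that these factors load gave larger ratios. Mcm2, Mcm3, Mcm4, Mcm5, Mcm6 and Mcm7 gave log2 ratios of Rb-deleted over parental MEFs of 2.00, 2.32, 1.56, 1.91, 2.25 and 1.04, so that 5 of the 6 lay above the 1.43 of Cdt1. Their shares on the WT Rb-HA array had a median of 45.2% (20.2 to 66.1), against 45.1% for the 7 genes. On the ΔCdk Rb-HA array their shares ran from 59.8 to 79.5% with a median of 64.9%, against 84.6% for the 7 genes. These ranges overlap, and the difference of the medians was not tested.

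A wider list of 39 other replication initiation genes had 27 that were detected on all 4 arrays. Of these 16 were past 1.6-fold over parental without Rb, 7 with WT Rb-HA and 10 with ΔCdk Rb-HA, beside 2.05%, 0.83% and 2.39% of all genes. None was past 1.6-fold lower, where 2.6%, 1.99% and 2.89% of all genes were, so that a count of 0 says little. Besides Mcm2 to Mcm7 the 16 were Mcm10, which joins the helicase at firing (log2 ratio 0.69), Gins4 (0.73), Cdk2 (0.68) and its partner Ccne1 (1.31), Wdhd1, which links helicase and polymerase (1.84), the fork proteins Timeless (1.24), Tipin (0.92) and Clspn (0.87), the polymerase subunit Pole (0.88) and Skp2, which marks Cdt1 for destruction (0.69). Against Rb-deleted MEFs 10 of the 27 were past 1.6-fold lower with wild type Rb, beside 0.434% of all genes. With ΔCdk Rb 2 were, Mcm2 at -0.74 and Mcm6 at -0.89, beside 1.87% of all genes. Between the Rb forms Mcm5 alone of the 27 was past 1.6-fold higher with ΔCdk Rb, at 0.81, beside 0.729% of all genes. Ccne2, which was detected on both of these arrays but not on the parental one, gave a wider 1.02 (bead standard error 0.13). Ccne2 and Donson were not detected on the parental array and were, after background correction, at least 1.96-fold and 1.39-fold over it in Rb-deleted MEFs, where the deposited intensities gave 1.69-fold and 1.33-fold. Dtl, Fbxo5 and Ccna2, which act on Cdt1 or geminin or drive S phase, were not detected on any array.

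Outside the 10 genes, those with the profile nearest to their median (1.09 without Rb, 0.48 with WT Rb-HA and 0.79 with ΔCdk Rb-HA, as log2 ratios to parental) were Rfc4, LOC385659, Hat1, E2f1 and Fignl1, by Euclidean distance over these 3 log2 ratios. Rfc4, a subunit of the clamp loader, was nearest at a distance of 0.062, with 1.05, 0.49 and 0.75. E2f1, a transcription factor that Rb binds, gave 1.15, 0.61 and 0.82 at a distance of 0.146. With 3 ratios that share 1 array, nearness describes these arrays only.

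Mitotic genes and markers of other cells were read beside these results. Of 16 G2/M genes 13 were detected and 11 on all 4 arrays. None of the 11 was past 1.6-fold of parental either way in Rb-deleted or WT Rb-HA MEFs, beside 4.65% and 2.82% of all genes. At such shares a count of 0 among 11 genes does not set them apart. In ΔCdk Rb-HA MEFs Cdc2a (log2 ratio 0.76) and Birc5 (0.91) were past 1.6-fold higher, beside 2.39% of all genes. All 11 were higher on the ΔCdk Rb-HA than on the WT Rb-HA array, beside 47.7% of all genes detected on all 4 arrays. The median log2 difference was 0.47 for the 11 G2/M genes and 0.55 for the 7 licensing and firing genes. Of 11 leukocyte markers 8 were detected, and all 8 were lower on the other 3 arrays than on the parental array, with summed intensities of 10257 in parental MEFs, 5378 without Rb, 4928 with WT Rb-HA and 6139 with ΔCdk Rb-HA, while Ptprc, Fcer1g and Itgam were not above background. The part of cell cycle position and of these other cells in the ratios was not tested.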

How the data were processed

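RNA of 4 MEF cultures was hybridized to Illumina MouseWG-6 v2.0 BeadChips, 1 array per condition, and groups were taken from the sample labels; the doxorubicin exposure is given by the methods and not by the labels. The authors deposited the intensity of each probe, averaged over its beads on a linear scale and not normalized between arrays, with a bead standard error, a bead count and a detection p-value. That p-value, as deposited, moves in steps of 1 in 936. The earlier steps of the array processing are not given in the sources used here. Symbols of 40 probes had become dates, and 34 were restored through the Entrez number.

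Background was corrected with limma 3.58.1 in R 4.3.3 by normexp, which took the background from the detection p-values, with 16 added as an offset, which pulls the ratios of dim probes toward 0. Quantile normalization across the arrays and log2 followed. Probes were called detected at a detection p-value below 0.01, and the probe with the highest mean log2 signal stood for its gene. The 1.6-fold limit is the study's filter. A ratio to an array on which the probe was not detected is a lower bound, taken against the dimmest detected probe there, or the probe itself where brighter. Each ratio has the bead standard errors of both its arrays, carried through the normalization. Precision is limited by the number of arrays, and no p-values between conditions were computed. The calculation was tested on simulated data. Tables were handled in Python 3.11.15 with pandas 2.3.3 and numpy 2.4.6.

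Genes named were the 10 genes with every probe, their partners, the listed initiation genes past 1.6-fold, Rb1 and the 5 nearest profiles. The genes and the lists were chosen with earlier results of these data known. Alternatives changed the background correction, offset, normalization, filter, probe rule and fold limit.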

Additional observations from a re-analysis of the deposited data

How the results depend on the processing

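Over the 7 genes detected on all 4 arrays, used in the comparisons above and recomputed under each setting after the data had been seen, those past 1.6-fold in Rb-deleted over parental went from 7 to 6 without background correction, 5 with an offset of 50 and 4 at a 2-fold limit, while the share of all genes went from 2.05% to 1.27%, 1.12% and 0.554%. In ΔCdk Rb-HA over parental the count went from 7 to 4, 4 and 3 (all genes 2.39% to 1.5%, 1.33% and 0.618%), and in WT Rb-HA over Rb-deleted from 4 to 2, 2 and 0 (0.434% to 0.249%, 0.212% and 0.102%). Without the quantile step and with the mean of the detected probes each of these counts was as before. The median log2 ratios over the 7 went from 1.09 to 0.94 and 0.89 in Rb-deleted over parental, and from -0.76 to -0.57 and -0.51 in WT Rb-HA over Rb-deleted, without background correction and with an offset of 50. The alternatives were also run on the 8 genes detected on at least 1 array, which add Orc1l at its fitted ratio, a gene that passed the filter through its higher arrays. There 68 of 84 values stayed within 1.5 times the count or the median bead standard error, 16 moved and none turned its direction. Counts went from 8 to 5 (offset 50) and 4 (2-fold) in Rb-deleted over parental, from 7 to 4 (no background correction, offset 50) and 3 (2-fold) in ΔCdk Rb-HA over parental, and from 4 to 2 (no background correction, offset 50) and 0 (2-fold) in WT Rb-HA over Rb-deleted. The single gene past the limit in WT Rb-HA over parental (Gins2) and in ΔCdk Rb-HA over WT Rb-HA (Cdc6) was lost at 2-fold, giving 0 in each. Medians of the 8 went from 1.03 to 0.87 (no background correction), 0.84 (offset 50) and 0.89 (no filter on dim probes) in Rb-deleted over parental, and from -0.61 to -0.46 (offset 50), -0.44 (no filter) and -0.76 (detected on all 4 arrays) in WT Rb-HA over Rb-deleted. A larger offset compresses dim ratios by construction, and otherwise the cause was not tested. Gins2 changed sign in ΔCdk Rb-HA over Rb-deleted, from 0.10 to -0.17 with the mean of its detected probes. No paired analysis was possible because each condition had 1 array, and for the same reason no array could be left out. Dim signal limits Orc1l, Gmnn and Orc2l most.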
